A study of Hydra oligactis with 61 samples.

Results

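Aboral wound tips of *Hydra oligactis* treated with alsterpaullone (ALP) were compared with DMSO-treated tips at 12 hours post amputation (hpa). The comparison holds 6 of the 61 RNA-seq libraries of the series, 3 per group, and its members were set by wound, treatment and time and not by any measured value. Polyps of the laboratory strain Innsbruck 12 were cut at mid-body, and the tissue beside the wound of the piece that keeps its head, and so faces foot regeneration, was collected. The treated group (ALP) was kept in 5 µM ALP for the first 3 h after the cut and then washed. The control group (DMSO) was kept for the same 3 h in the solvent alone, at a concentration given as 0.5% in the design text and 0.05% in the methods. Each library is a pool of tissue from about 30 animals, all 6 libraries belong to batch 1, and the reads were mapped to a transcriptome assembled from a different strain of the species (Swiss Cold Resistant). An aboral pool at 12 hpa mixes tips that will and will not form a foot, because this species regenerates feet at a low rate. The paper reports a higher rate of foot regeneration after this ALP treatment. Some of the treated animals formed a second head at the aboral wound, so ALP pools may also hold such tips. P-values rest on the spread between pools within groups, estimated over all 61 libraries and not from these 6 pools alone. In such bulk tissue fewer cells of a type and less RNA per cell cannot be told apart.

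In canonical Wnt signaling a destruction complex built on Axin lets the kinase GSK-3 mark β-catenin for degradation, and a Wnt ligand bound to a Frizzled receptor stops this, so that β-catenin enters the nucleus and acts with TCF on target genes. ALP inhibits GSK-3 and therefore activates the pathway downstream of the receptor. In *Hydra vulgaris* the pathway drives the head organizer, where Wnt3 is the leading ligand and the zinc finger factor Sp5 is both a target of the pathway and a repressor of *wnt3*. The comparison addresses what the tip transcribes hours after a transient activation of this pathway at a wound that faces the foot end.

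Library totals ran from 14.6 M to 25.2 M estimated counts in DMSO and from 18.9 M to 20.7 M in ALP (14.6 M to 26.1 M over the series). Levels are given as depth-normalised counts (CPM) scaled by TMM, and DMSO libraries are listed in the order 1, 2, 4 and ALP libraries in the order 1, 2, 3, as the deposited table numbers them. ALP library 1 stood apart from the rest. It differed by over 2-fold, on log2(CPM + 1), from ALP libraries 2 and 3 at 154 and 147 transcripts, where the latter pair differed at 19 and the DMSO pairs at 4 to 20. The 1147 head-specific transcripts, which are higher in uninjured heads than in feet and in both 0 hpa groups, summed to 13802 CPM in ALP library 1, 10181 in library 2 and 9625 in library 3, against 8927 to 9671 CPM in DMSO. In ALP library 1, 649 of them were over 1 CPM, against 524 to 529 in the other ALP libraries and 503 to 517 in DMSO. The sum was 8120 to 9090 CPM in aboral tips at 0 hpa and 141000 to 154000 CPM in uninjured heads, so all 6 tips lay close to the body column. The 450 foot-specific transcripts, defined in the same way for uninjured feet, summed to 2604 to 2711 CPM in ALP and 2321 to 2583 in DMSO, where feet held 77300 to 80200. Because of ALP library 1, results that change without it are also given without it. Of 62 named transcripts that were called, 32 were called whichever of the 6 libraries was left out, 5 lost their call only without ALP library 1, and 25 lost it without at least 1 other library.

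**Figure D1:**
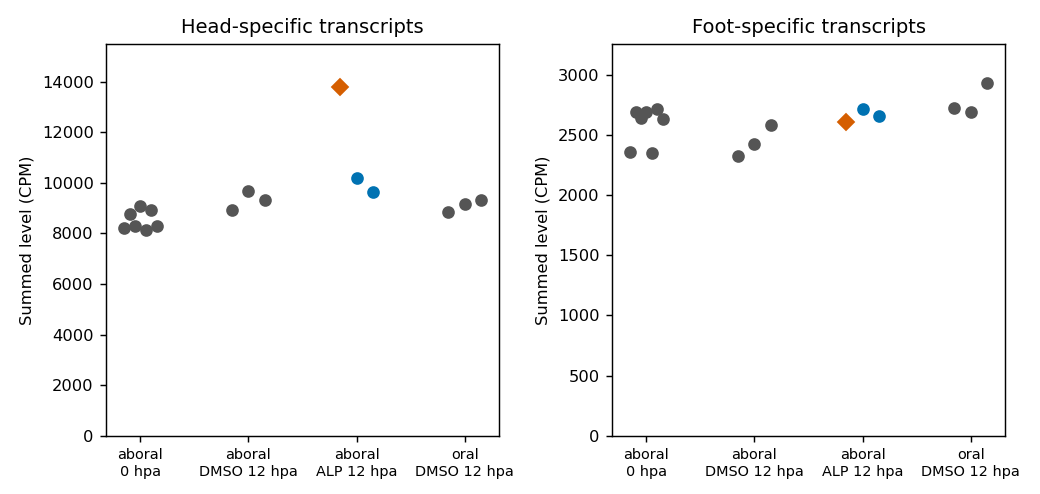
Summed level of head-specific (left) and foot-specific (right) transcripts in CPM, 1 point per library, for aboral tips at 0 hpa, aboral tips at 12 hpa with DMSO or ALP, and oral tips at 12 hpa. ALP library 1 (orange diamond) lies at 13802 CPM of head-specific transcripts, above every other tip library shown, while its foot-specific sum lies with those of the other ALP libraries (blue).

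At 12 hpa, 409 transcripts rose and 299 fell with ALP of 17676 tested (edgeR quasi-likelihood test, adjusted p under 0.01), which is 4.01% of those tested, 2.31% higher and 1.69% lower. Changes were mostly small. The median absolute log2 fold change of the called transcripts was 0.64, and 166 rose and 42 fell by over 2-fold. The groups did not overlap in CPM for 670 of the 708 (94.6%), against 30.7% of all transcripts tested. Without ALP library 1 the calls fell to 208 higher and 156 lower (2.03%, 1.16% and 0.872% of 17892 tested), of which 346 are shared with the full comparison. The count also depended on the DMSO libraries, with 359 calls without DMSO library 2 and 447 without DMSO library 4. Of the 211 transcripts whose rise was lost without ALP library 1, 92 (43.6%) were head-specific, against 30.6% of all called risers and 6.49% of all tested. Of the 57 called risers that stood over 3 times higher in ALP library 1 than in each other ALP library, 56 were head-specific. That library was set apart because it leans toward the head, so these shares follow from the choice and only describe it. A contribution of head tissue or of another difference between pools to these calls was not tested.

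**Figure D2:**
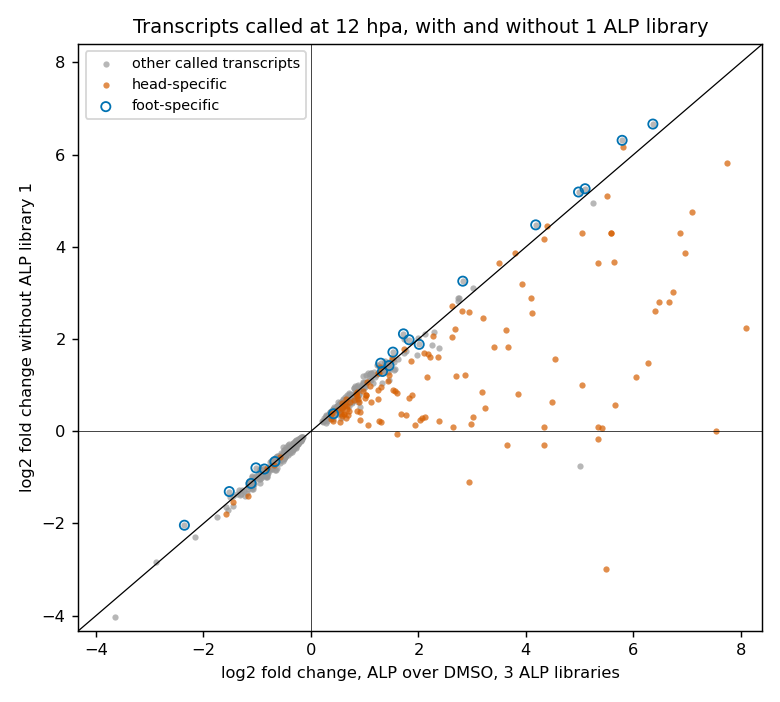
Log2 fold change (ALP over DMSO) of each transcript called at 12 hpa, with all 3 ALP libraries on the x axis and without ALP library 1 on the y axis. Falling transcripts and foot-specific transcripts (blue circles) lie along the diagonal, whereas many head-specific transcripts (orange) drop toward 0 or below without that library.

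Among 26 transcripts of the Wnt pathway, 4 rose and 1 fell, against 2.31% and 1.69% of all transcripts tested, and these 5 calls also held without ALP library 1. Of the 26, 13 are head-specific. The median log2 fold change of the list was 0.24, against -0.0094 over all transcripts tested. The clearest rise was that of *wntless* (R038745c0g1_i02), the carrier that takes Wnt ligands to the cell surface. It was at 24.9, 23.8 and 22.3 CPM in DMSO and at 61.8, 76.6 and 56.8 CPM in ALP. Every ALP library was more than 2-fold above every DMSO library, and *wntless* ranked first by p-value of all transcripts tested (log2 fold change 1.45 ± 0.11, SE; adjusted p = 8.4e-15). Without ALP library 1 the change was 1.51. The other member of the secretion machinery, a match to the acyltransferase porcupine, was at 6.79 CPM in DMSO and 7.87 in ALP on average and was not called (log2 fold change 0.21 ± 0.15, adjusted p = 0.41).

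*wnt3* (R033453c0g1_i01) was nearly silent in DMSO, at 0.0778, 0.163 and 0.0685 CPM (2, 4 and 1 counts), and stood at 3.13, 1.08 and 0.971 CPM in ALP (64, 23 and 19 counts). All ALP libraries were above all DMSO libraries, and library 1 was the highest of the ALP group. The log2 fold change was 3.92 ± 0.59 (SE; adjusted p = 4.7e-06), and 3.19 without ALP library 1 (adjusted p = 0.00066). Uninjured heads held 35.2 ± 2.32 CPM (SD, n = 5), so *wnt3* in ALP tips was far below the level of a head. None of the other 8 ligand transcripts was called by edgeR, although 6 of the 9 ligands had an unadjusted p under 0.05 and the DESeq2 Wald test called 5. *wnt7* (1.81, 0.187 and 0.0511 CPM in ALP, adjusted p = 0.013) and *wnt9/10c* (1.37, 0 and 0.204 CPM, adjusted p = 0.023) were high in ALP library 1 alone. The match to Wnt-5a was at 8.87, 9.29 and 9.46 CPM in DMSO and at 14.9, 15.6 and 9.6 CPM in ALP and just missed the threshold (adjusted p = 0.01).

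None of the 4 receptors and none of the 4 members of the intracellular core was called by edgeR or by the DESeq2 Wald test (2 and 1 had an unadjusted p under 0.05). Log2 fold changes of the 3 Frizzled matches lay between -0.36 and -0.03. *lgr5*, a receptor for the Wnt amplifier R-spondin, was at 2.29, 2.65 and 1.51 CPM in DMSO and at 0.979, 0.843 and 1.33 CPM in ALP (log2 fold change -1.07 ± 0.33, adjusted p = 0.033). *axin1*, the scaffold of the destruction complex and in many animals a feedback target of the pathway, differed by -0.04 ± 0.09 on the log2 scale (30.2 CPM in DMSO and 29.3 in ALP on average, adjusted p = 0.83). *tcf* differed by 0.26 ± 0.08 (66.0 and 78.9 CPM on average, adjusted p = 0.028), and the Groucho-type corepressor *tle3* by -0.06 ± 0.06 (adjusted p = 0.58).

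Of the 2 Wnt target genes listed, *sp5* (R029443c0g1_i01) fell. Its levels were 69.4, 62.4 and 39.4 CPM in DMSO and 24.6, 15.8 and 17.2 CPM in ALP. The lowest DMSO library was above the highest ALP library, and the fall was -1.58 ± 0.15 on the log2 scale (adjusted p = 3.1e-11; -1.79 without ALP library 1). The T-box factor *brachyury1*, like *sp5* head-specific in these libraries, was at 7.86 CPM in DMSO and 7.66 in ALP on average and was not called (log2 fold change -0.02 ± 0.18, adjusted p = 0.97). *sp5* fell in the same tips in which *wnt3* rose. Within the ALP group, library 1 held the highest level of both (24.6 and 3.13 CPM). A link between these changes was not tested.

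Of 5 Wnt antagonists 2 rose, against 2.31% of all transcripts tested, and these had the largest log2 fold changes of the pathway members that were called. The DESeq2 Wald test gave an adjusted p for 3 of the 5 and called 1. *sFRP* (R035800c0g3_i01), a secreted Frizzled-related protein that binds Wnt ligands, was at 0.0778, 0.0408 and 0.274 CPM in DMSO (2, 1 and 4 counts) and at 2.59, 3.84 and 4.6 CPM in ALP (53, 82 and 90 counts). It is one of the foot-specific transcripts, and uninjured feet held 3.32 CPM on average. The log2 fold change was 4.98 ± 0.52 (adjusted p = 1.2e-09) and 5.19 without ALP library 1, which held the lowest of the ALP values. A match to sFRP-3 (R035800c0g5_i01) rose likewise, from 0.233, 0.367 and 0.137 CPM to 2.74, 5.29 and 6.44 CPM (log2 fold change 4.18 ± 0.47, adjusted p = 3.2e-09). The identifiers of both transcripts share their first part, so whether they are pieces of a single gene that share reads is uncertain. Matches to the antagonists Dickkopf-3, WIF-1 and APCDD1 were not called (log2 fold changes -0.01, -2.33 and -0.15).

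**Figure D3:**
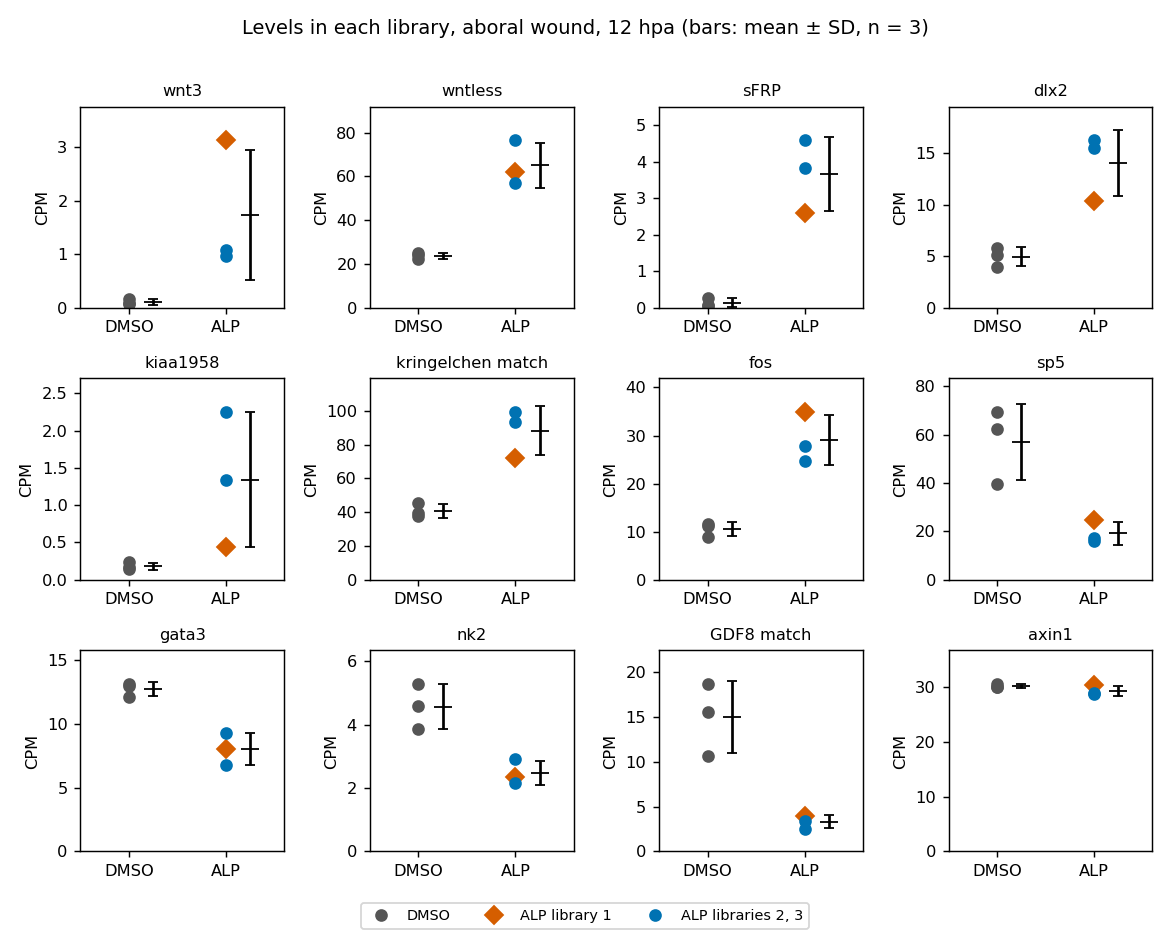
Level in CPM of 12 transcripts in each of the 6 libraries, with the mean ± SD (n = 3) beside the points. The DMSO and ALP points do not overlap in any panel except that of *axin1*, and ALP library 1 (diamond) is the highest ALP point for *wnt3* (3.13 CPM) and the lowest for *sFRP*, *dlx2*, *kiaa1958* and the kringelchen match.

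Of 11 transcription factors of the foot list, 1 rose and 2 fell, against 2.31% and 1.69% of all transcripts tested. *dlx2* (R029042c0g1_i02), a distal-less homeobox factor, was at 3.97, 5.14 and 5.76 CPM in DMSO and at 10.4, 15.5 and 16.3 CPM in ALP. The groups were well apart, and the rise was 1.52 ± 0.24 on the log2 scale (adjusted p = 6.9e-06; 1.72 without ALP library 1). Uninjured feet held 84.8 CPM on average. *gata3*, a GATA zinc finger factor, fell from 12.9, 12.1 and 13.1 CPM to 7.98, 6.75 and 9.25 CPM (log2 fold change -0.67 ± 0.15, adjusted p = 0.0013). The call was lost without ALP library 1 (-0.66, adjusted p = 0.01) or ALP library 2 (adjusted p = 0.024), at nearly the same fold in the first case. *nk2*, an NK2 homeobox factor, was at 3.85, 4.57 and 5.28 CPM in DMSO and at 2.35, 2.16 and 2.91 CPM in ALP (log2 fold change -0.87 ± 0.20, adjusted p = 0.0031). Its groups did not overlap either, but its call was lost without ALP library 1 or 2 or DMSO library 2 or 4, with adjusted p of up to 0.03.

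The forkhead factor *fd4*, with 65.8 CPM in feet, stood at 0.132 CPM in DMSO and 0.192 in ALP on average and was not called (adjusted p = 0.8). The other 7 factors of the list were not called either. Among 4 further foot genes, *kiaa1958* (R023095c0g1_i01) rose from 0.233, 0.163 and 0.137 CPM (6, 4 and 2 counts) to 0.44, 2.25 and 1.33 CPM (9, 48 and 26 counts). ALP library 1 lay just above the DMSO libraries and the other ALP libraries well above them. The log2 fold change was 2.83 ± 0.67 (adjusted p = 0.0041), and 3.26 without ALP library 1 (adjusted p = 0.00075), but leaving out any other library except that took the adjusted p to between 0.01 and 0.085, past the threshold. The melanopsin *opn4a*, the neuropeptide receptor *npyr4* and the tolloid-type protease *tld* were not called (log2 fold changes -0.05, -0.1 and 0.6). By the rule used here *opn4a* was not foot-specific, with 30.8 CPM in feet and 33.1 CPM in heads on average. Another melanopsin match (R040189c0g1_i01) fell (log2 fold change -1.44, adjusted p = 0.0072), but kept its call in only 1 of the 6 fits that each leave out 1 library.

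Over the whole foot-specific list, 14 of 450 transcripts rose (3.11%) and 6 fell (1.33%), against 2.31% and 1.69% of all transcripts tested, and the median log2 fold change was 0. Without ALP library 1, 12 rose (2.67%) and 2 fell (0.444%), against 1.16% and 0.872% of all transcripts tested. A match to Ras-like protein family member 12 rose from 3.7, 4.24 and 3.15 CPM to 6.9, 9.89 and 10.9 CPM (log2 fold change 1.3 ± 0.19, adjusted p = 1.9e-06). A match to the calcium-binding protein sorcin fell from 2.33, 2.4 and 1.78 CPM to 0.538, 0.796 and 0.971 CPM (log2 fold change -1.52 ± 0.29, adjusted p = 0.00026). Peroxidase activity marks the basal disk, but which transcript encodes that enzyme is not given in the sources used here. Of 6 ascorbate peroxidase matches, 4 are foot-specific and 1 is head-specific. Only R038155c0g1_i01, which is neither, was over 1 CPM, and it rose from 237, 226 and 222 CPM to 359, 519 and 370 CPM (log2 fold change 0.87 ± 0.22, adjusted p = 0.0071). That call was lost without ALP library 2 or any DMSO library (adjusted p up to 0.081).

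Head-specific transcripts rose in number, but mostly through ALP library 1. Of 1147, 125 rose (10.9%) and 6 fell (0.523%), with a median log2 fold change of 0.31. Without ALP library 1, 33 rose (2.88%) and 9 fell, with a median of 0.072, against 1.16% and 0.872% of all transcripts tested. The rises that held without it include matches to receptor tyrosine kinases. Ephrin type-A receptor 4 went from 77.1, 70 and 72.6 CPM to 123, 112 and 106 CPM (log2 fold change 0.63 ± 0.06, adjusted p = 3.3e-12). The collagen receptor Discoidin domain-containing receptor 2 went from 12.7, 12.7 and 11 CPM to 29.9, 28.5 and 29.5 CPM (1.26 ± 0.12, adjusted p = 8.8e-11; 1.26 without ALP library 1). In both cases the 3 ALP libraries were close together, unlike the head-specific transcripts that peak in library 1. The match to Properdin, whose mammalian counterpart promotes complement activation, is an example of the latter, with 12.8, 12.6 and 12.3 CPM in DMSO and 117, 40.6 and 35.5 CPM in ALP (log2 fold change 2.36, and 1.61 without ALP library 1, adjusted p = 1e-10). Besides *sp5*, the head-specific falls include a match to the apoptosis regulator BAX, from 28.2, 32.9 and 36.3 CPM to 21.9, 18.4 and 20.2 CPM (log2 fold change -0.68 ± 0.11, adjusted p = 6.9e-06).

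Of 26 further developmental transcription factors, 3 rose and 4 fell, against 2.31% and 1.69% of all transcripts tested. Without ALP library 1, 2 rose and 3 fell, against 1.16% and 0.872%. The match to ZIC4, a zinc finger factor that in *Hydra vulgaris* maintains tentacle identity, was at 0.739, 0.448 and 0.206 CPM in DMSO and at 5.68, 4.22 and 1.79 CPM in ALP. All ALP libraries were above all DMSO libraries (log2 fold change 2.93 ± 0.43, adjusted p = 2.9e-06; 2.58 without ALP library 1), although heads held 221 CPM on average. The match to the Msx factor vab-15 fell from 13.5, 13.8 and 11.6 CPM to 5.48, 6 and 6.18 CPM (log2 fold change -1.15 ± 0.16, adjusted p = 6.1e-07). The distal-less factor *dlx1* fell from 52.5, 54.2 and 49.2 CPM to 38.7, 38.4 and 37.1 CPM (log2 fold change -0.45 ± 0.08, adjusted p = 4e-05), so the paralogs *dlx1* and *dlx2* moved in opposite directions. Homeobox matches to HHEX (log2 fold change -0.63, adjusted p = 0.0001) and DMBX1 (-1.09, adjusted p = 0.00058) also fell, the latter call being lost without ALP library 1 (-1, adjusted p = 0.01). The match to SIX6 rose by 0.46 (adjusted p = 0.0039) but lost its call without ALP library 2 or 3 or DMSO library 2 or 4 (adjusted p up to 0.029). The match to the homeobox factor orthopedia had no count in DMSO and 8, 3 and 2 counts in ALP, which is at least 4.57-fold higher against a floor of 3 counts over the DMSO group (2.62-fold without ALP library 1), and its call was lost without ALP library 1 (adjusted p = 0.044) or without DMSO library 1 or 2 (adjusted p = 0.012 and 0.014). Outside the lists, a match to Transcription factor AP-2-beta fell from 27.5, 26.2 and 27.2 CPM to 10, 7.31 and 9.91 CPM (log2 fold change -1.57 ± 0.14, adjusted p = 3.3e-12). The 5 factors *foxl1*, *dmrta2*, *ywhaz*, *aatf* and *rfx1* were not called by edgeR or DESeq2, and 1 had an unadjusted p under 0.05 (log2 fold changes -0.14 to -0.01).

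Of 6 bZIP factors, which respond to injury and stress in many tissues, 2 rose, against 2.31% of all transcripts tested. *fos* was at 8.87, 11.5 and 11.2 CPM in DMSO and at 34.9, 24.6 and 27.8 CPM in ALP. Each ALP library was over 2-fold above each DMSO library (log2 fold change 1.48 ± 0.29, adjusted p = 0.00039; 1.34 without ALP library 1). A match to AP-1 rose by 0.31 ± 0.07 (59.3 and 73.9 CPM on average, adjusted p = 0.0035) and lost its call without ALP library 2 or 3 or DMSO library 1 or 4 (adjusted p up to 0.053). The *fos* partner *jun* (log2 fold change -0.06, adjusted p = 0.66) and *creb* (-0.02, adjusted p = 0.93) were not called.

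In the FGF and Notch list, 2 of 14 rose and 2 fell, against 2.31% and 1.69% of all transcripts tested. The match to kringelchen, the FGF receptor that in *Hydra vulgaris* marks the boundary where a bud detaches, was at 37.4, 39.3 and 45.5 CPM in DMSO and at 71.9, 93.7 and 99.4 CPM in ALP (log2 fold change 1.12 ± 0.11, adjusted p = 2.3e-10; 1.27 without ALP library 1). The match to Sprouty-2, a feedback inhibitor of FGF signaling, rose from 8.17, 9.05 and 11.8 CPM to 13.9, 15.4 and 15.3 CPM (log2 fold change 0.65 ± 0.13, adjusted p = 0.00052), a call lost without DMSO library 1 (adjusted p = 0.014). Another FGF receptor match, FGFR-2 (R028638c0g1_i01), was lower, at 3.97, 3.63 and 5.07 CPM in DMSO and 2.01, 2.01 and 1.74 CPM in ALP (log2 fold change -1.11 ± 0.27, adjusted p = 0.0038). Of the 6 fits that each leave out 1 library, it kept its call only in that without DMSO library 2, with adjusted p of up to 0.03 in the others. HES-2, a match to a bHLH factor of the family that Notch induces, fell from 2.68, 3.18 and 3.29 CPM to 1.76, 1.08 and 1.18 CPM (log2 fold change -1.17 ± 0.23, adjusted p = 0.00027). Outside this list, a match to Notch-regulated ankyrin repeat-containing protein, a Notch target and inhibitor in vertebrates, was named because it is among the 12 largest falls. It went from 4.86, 6.85 and 9.11 CPM to 2.98, 3.19 and 1.89 CPM (log2 fold change -1.31 ± 0.27, adjusted p = 0.00069), with an adjusted p of 0.013 without ALP library 3 and 0.011 without DMSO library 4.

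In the BMP and TGF-beta list, 1 of 11 rose and 2 fell, against 2.31% and 1.69% of all transcripts tested. Both falls were of matches to GDF8, a TGF-beta family ligand. GDF8 R001669c0g1_i01 had the largest fall among the named transcripts that were called, from 10.7, 15.6 and 18.7 CPM to 3.96, 2.53 and 3.42 CPM, with the groups wide apart (log2 fold change -2.17 ± 0.23, adjusted p = 5.3e-10; -2.29 without ALP library 1). GDF8 R037547c0g1_i01 fell by 1.06 on the log2 scale (adjusted p = 0.0042), from 11.4 ± 1.56 to 5.51 ± 1.24 CPM (SD, n = 3), and lost its call without ALP library 1 or 2 or DMSO library 2 (adjusted p up to 0.052). A match to the activin receptor ACVR2A rose by 0.4 ± 0.09 (21.1 and 27.8 CPM on average, adjusted p = 0.0019), and lost its call without ALP library 1 or 2 (adjusted p = 0.012 in both).

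Of 29 metalloproteinases, which cut matrix and signaling proteins, 10 rose, none fell and 19 were not called, against 2.31% higher and 1.69% lower over all transcripts tested. The median log2 fold change of the list was 0.19, and 13 of the 29 are head-specific, the class that ran high in ALP library 1. Without that library 5 rose and 1 fell, against 1.16% and 0.872% of all transcripts. The match to BMP-1, a tolloid-type enzyme that cleaves matrix precursors and BMP antagonists (R038495c0g2_i08), is not head-specific and rose evenly, from 19.3, 24 and 23.2 CPM to 50.2, 59.9 and 59.6 CPM (log2 fold change 1.36 ± 0.14, adjusted p = 5.3e-10; 1.45 without ALP library 1). The astacin match nas-6 (R038737c0g3_i04) rose unevenly. It was at 1.44, 2.08 and 1.71 CPM in DMSO and at 48.7, 12.6 and 3.07 CPM in ALP (log2 fold change 3.62 ± 0.42, adjusted p = 1e-08; 2.2 without ALP library 1). An astacin match nas-8 (R034130c1g1_i04) had the same order, with 9.18, 10.7 and 10.1 CPM in DMSO and 51.6, 39.6 and 16.8 CPM in ALP (log2 fold change 1.85 ± 0.24, adjusted p = 1.6e-07; 1.52 without ALP library 1). ADAMTS-9, a match to a proteoglycan-cleaving enzyme, rose by 0.87 ± 0.14 (18.4 ± 1.32 to 33.5 ± 7.45 CPM, SD, n = 3; adjusted p = 1.7e-05; 0.69 without ALP library 1). The match to MMP-27 had no count in DMSO and 71, 10 and 5 counts in ALP, at least 30.2-fold higher against the floor of 3 counts over the DMSO group. ALP library 1 held most of these counts, and without it the match was at least 7.82-fold higher. The match was called whichever of the 6 libraries was left out.

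Of 20 extracellular matrix transcripts, 3 rose, 1 fell and 16 were not called, against 2.31% higher and 1.69% lower over all transcripts tested. The 3 rises lost their call without ALP library 1 (adjusted p 0.015 to 0.81). The Fibrillin-1 match R038733c0g1_i03 kept its fold, with 0.34 on the log2 scale both with and without that library, and also lost its call without ALP library 2 or any DMSO library (adjusted p up to 0.015). The fall, of a match to collagen XXVII, was -0.48 (adjusted p = 0.0022) and held without ALP library 1 (-0.54, adjusted p = 0.0034). The match to Thrombospondin-2 was at 35.8, 35.3 and 31.9 CPM in DMSO and at 363, 46.1 and 38.7 CPM in ALP (log2 fold change 2.12, and 0.32 without ALP library 1, adjusted p = 0.33). Of 7 nerve cell markers 4 rose, against 2.31% of all transcripts tested, and these calls were lost without ALP library 1 (adjusted p 0.12 to 1). They include 3 precursors of RFamide neuropeptides, and ALP library 1 held 3.67, 9.05 and 5.38 CPM of them where the other ALP libraries held between 0 and 0.328 CPM and DMSO between 0 and 0.0685 CPM. The summed nerve marker level was 150 CPM in ALP library 1, 104 and 94.8 CPM in the other ALP libraries, and 86 to 92.6 CPM in DMSO. The remaining riser, a match to the LWamide precursor, rose by 0.41 (adjusted p = 0.0042) and by 0.27 without ALP library 1 (adjusted p = 0.12). The part of nerve cells in the calls was not tested. Of 5 gland cell enzymes 1 rose, against 2.31% of all transcripts tested. It was a match to chymotrypsin-C (R074105c0g1_i01, log2 fold change 0.58, adjusted p = 0.00089; 0.49 without ALP library 1, adjusted p = 0.017). The gland cell sum was 111 to 121 CPM in ALP and 108 to 128 in DMSO, and no gland marker was at 0 in all libraries. None of 3 germ line markers was called by either test or had an unadjusted p under 0.05, with sums of 44.4 to 52.1 CPM in ALP and 45.1 to 56.7 CPM in DMSO.

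None of 12 cell cycle transcripts and none of 4 apoptosis transcripts was called by edgeR or by the DESeq2 Wald test (4 and 0 had an unadjusted p under 0.05; median log2 fold changes -0.11 and -0.08). Nearest to the threshold was a match to the replication factor MCM5 (108, 99 and 107 CPM in DMSO; 95, 87 and 98.6 CPM in ALP; log2 fold change -0.16 ± 0.05, adjusted p = 0.048). The 4 apoptosis transcripts do not include the BAX match named among the head-specific falls, which was called (log2 fold change -0.68, adjusted p = 6.9e-06). Over all 189 listed transcripts, of which 52 are head-specific, 33 rose and 12 fell, against 2.31% and 1.69% of all transcripts tested. Without ALP library 1, 18 rose and 8 fell, against 1.16% and 0.872%.

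Among the largest rises outside the lists, the match to Golgi-associated plant pathogenesis-related protein was at 0.0389, 0.0815 and 0.137 CPM in DMSO and at 2.3, 5.48 and 6.39 CPM in ALP (log2 fold change 5.81 ± 0.70, adjusted p = 3.5e-08). It rose most in ALP libraries 2 and 3, as *sFRP* did. A match to Venom allergen 5.02 was instead at 23.5, 1.08 and 0.869 CPM in ALP against 0, 0.122 and 0.0685 CPM in DMSO (log2 fold change 6.96, and 3.86 without ALP library 1, adjusted p = 0.00085). A match to Calmodulin, at 13.3, 0.141 and 0.153 CPM in ALP, was called through library 1 alone (adjusted p = 0.71 without it). Calpain small subunit 1, a match to the regulatory subunit of a calcium-dependent protease, rose from 1.21, 2.2 and 1.16 CPM to 9.05, 6.84 and 7.05 CPM (log2 fold change 2.29 ± 0.41, adjusted p = 0.00011; 2.16 without ALP library 1). Zinc finger SWIM domain-containing protein 4 was among the largest falls, from 51, 57.6 and 44.1 CPM to 28.5, 22.3 and 21.8 CPM (log2 fold change -1.08 ± 0.11, adjusted p = 5.3e-10).

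The ALP effect at 12 hpa was then set against that at 3, 24 and 48 hpa, where ALP and DMSO tips were also compared and no library is shared between times. ALP changed 2321 transcripts at 3 hpa (13.1%), 1928 at 24 hpa (10.9%) and 2840 at 48 hpa (16.1%), so 12 hpa had the fewest calls of the 4 times. Of the 708 transcripts called at 12 hpa, 28 were called with the same sign at 3 hpa (3.95% of these and 1.21% of the 3 hpa calls) and 148 with the opposite sign. At 24 hpa, 266 had the same sign (37.6% and 13.8%) and 15 the opposite. At 48 hpa, 145 had the same sign (20.5% and 5.11%) and 53 the opposite. In all, 307 were called at no other time. These overlaps were not counted without ALP library 1, on which 362 of the 708 calls depend. The difference between effects was itself called for 2359 transcripts against 3 hpa (13.3%), 464 against 24 hpa (2.63%) and 1663 against 48 hpa (9.41%). Without ALP library 1 it was called for 1863, 333 and 1216 transcripts. The 24 hpa libraries belong to batch 2 and each effect is a difference within its batch.

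The genes described above followed several courses. The log2 fold change of *wntless* was -0.02, 1.45, 0.73 and 0.32 in order of time, and its effect at 12 hpa exceeded that at each other time (adjusted p = 9.9e-11, 0.0014 and 1.1e-07). *dlx2* was lower with ALP at 3 hpa (-1.92 ± 0.30, adjusted p = 4.3e-06), higher at 12 hpa, and still higher than DMSO at 24 hpa (1.12 ± 0.27, adjusted p = 0.0018). The kringelchen match (-0.78 at 3 hpa, 1.16 at 24 hpa), *fos* (-1.19 and 2.76) and the BMP-1 match (-1.27 and 2.52) were also lower at 3 hpa and higher at 12 and 24 hpa, each with a called difference between 3 and 12 hpa (adjusted p = 4.5e-12, 4.1e-07 and 6.7e-14). At 48 hpa the kringelchen match (0.47, adjusted p = 0.0015) and the BMP-1 match (0.55, adjusted p = 0.0065) were higher with ALP, whereas *fos* (0.41, adjusted p = 0.51) and *dlx2* (0.27, adjusted p = 0.46) were not called. The effect on the BMP-1 match was smaller at 12 than at 24 hpa (difference -1.17, adjusted p = 0.00013). *sp5* went the other way, higher at 3 hpa (0.65 ± 0.14, adjusted p = 0.0003) and lower at 12 and 24 hpa (-0.96 ± 0.14 at 24 hpa, adjusted p = 7.3e-07). *axin1*, not called at 12 hpa, was higher at 3 hpa (1.12 ± 0.09, adjusted p = 4.9e-14) and lower at 24 hpa (-0.37 ± 0.09, adjusted p = 0.0023).

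The foot factors *gata3* and *nk2*, both lower with ALP at 12 hpa, were higher at 24 hpa (0.51 and 0.82, adjusted p = 0.0059 and 0.00095) and at 48 hpa (0.46 and 0.63, adjusted p = 0.0071 and 0.0035). The difference between 12 and 24 hpa was called for both (adjusted p = 6.6e-05 and 3.6e-05). The GDF8 match R001669c0g1_i01 fell at 12 hpa alone (0.31, 0.44 and 0.58 at 3, 24 and 48 hpa, none called), and its 12 hpa effect differed from each of the others (adjusted p = 2.1e-08, 2.4e-08 and 8.3e-10). *wnt3* was not called at another time (-2.68, 1.03 and -1.92), and its rise at 12 hpa differed from the effects at 3 and 48 hpa (adjusted p = 9.3e-06 and 2.9e-05) but not detectably from that at 24 hpa (adjusted p = 0.25). Of the 450 foot-specific transcripts, 14 rose with ALP at 12 hpa, compared with 2 at 3 hpa (6.22% of all transcripts rose then), 44 at 24 hpa (4.8%) and 102 at 48 hpa (8.97%).

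**Figure D4:**
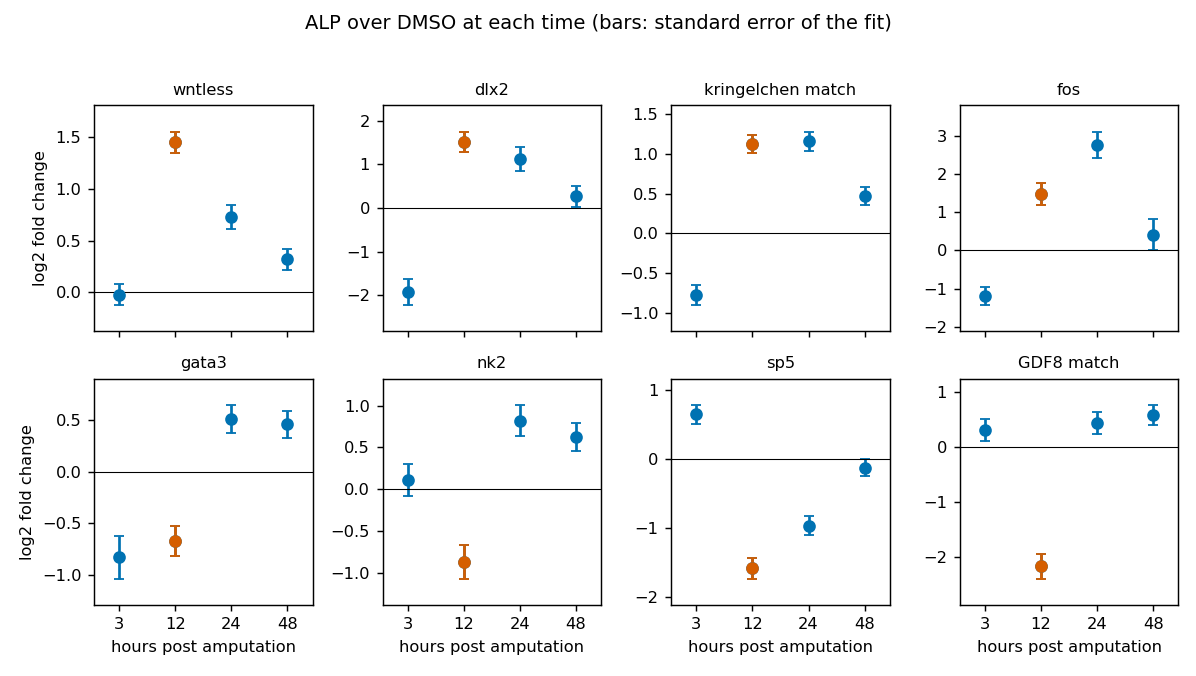
Log2 fold change (ALP over DMSO) of 8 transcripts at 3, 12, 24 and 48 hpa, with the standard error of the fit as bars and 12 hpa in orange. *wntless* peaks at 12 hpa (1.45), *dlx2*, the kringelchen match and *fos* turn from lower at 3 hpa to higher at 12 hpa, and *gata3* and *nk2* turn from lower at 12 hpa to higher at 24 hpa.

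Levels before the cut response and at the oral wound give the frame for these values. In these frames, 1756 transcripts (9.93%) differed between DMSO at 12 hpa and 0 hpa, 2505 (14.2%) between ALP at 12 hpa and 0 hpa, 1563 (8.84%) between the oral and the aboral wound at 12 hpa, and 814 (4.61%) between ALP-treated aboral tips and oral tips. These comparisons share libraries with the one above, so the values are only set side by side. *wntless* was at 21.6 ± 1.94 CPM in aboral tips at 0 hpa (SD, n = 7), 23.7 ± 1.28 in DMSO and 65.0 ± 10.3 in ALP at 12 hpa, and 30.2 ± 1.24 in DMSO-treated oral tips at 12 hpa (SD, n = 3). Its ALP level was thus above both wounds (log2 difference from the oral wound 1.11, adjusted p = 6.7e-12). *wnt3* was likewise higher in ALP-treated aboral tips than in oral tips (log2 difference 3.41, adjusted p = 3.1e-05), where it averaged 0.161 CPM. *sp5* was higher at the oral than at the aboral wound (91.9 ± 18.6 against 57.1 ± 15.7 CPM; log2 difference 0.68, adjusted p = 0.00045), and the ALP level of 19.2 ± 4.7 CPM lay below both. The BMP-1 match rose from 5.65 ± 0.84 CPM at 0 hpa to 22.2 ± 2.49 CPM in DMSO and 56.6 ± 5.53 CPM in ALP (log2 difference of DMSO at 12 hpa from 0 hpa 1.95, adjusted p = 1.5e-14). *dlx1* rose after the cut in DMSO, from 38.1 ± 2.63 to 51.9 ± 2.53 CPM (log2 difference 0.51, adjusted p = 1.1e-07), and in ALP stood at 38.1 ± 0.81 CPM, not distinguishable from 0 hpa (log2 difference 0.06, adjusted p = 0.61).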

How the data were processed

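Poly(A) RNA-seq was analysed in 61 libraries, of which 6 make up the comparison. Per the labels and methods, the authors trimmed reads with Trimmomatic, aligned them with Bowtie2 and obtained the deposited expected counts (estimated counts per transcript) with RSEM on a redundancy-reduced transcriptome. The aligner settings are not given in the sources used here, and the deposited counts are not batch-corrected. Columns were matched to groups by name, and every per-sample column of the counts table was matched (30 to a sample, 31 to a group only). Expected counts were rounded (5.33% of values were not whole). Low transcripts were removed with filterByExpr (a minimum count of 10 and a minimum total of 15, by group), which kept 17676 of 23396.

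edgeR 4.0.16 (R 4.3.3) fitted a quasi-likelihood model with TMM scaling to all libraries, with a term per group and a numeric batch term (0.4 for Foot and Head libraries, whose batch per library is not given), leaving 44 residual degrees of freedom. A transcript was called at a Benjamini-Hochberg adjusted p under 0.01 over all transcripts tested. All tests are two-sided, and all log2 fold changes, standard errors and adjusted p-values are from this fit unless another is named. Foot-specific and head-specific transcripts exceeded the other end and both 0 hpa groups at a log2 fold change over 2, with no 12 hpa library in their definition. On simulated counts for the 12 hpa comparison (17608 transcripts), 88% of 2-fold rises and 60% of 1.5-fold rises were recovered. Of 2-fold falls (fold 0.5), 78% were recovered, and there were 4 false calls. Recovery and false calls at low counts, or with a pool that stands apart as ALP library 1 does, were not tested.

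The members and gene lists were chosen with earlier results of these data known. Named are the study's own genes, up to 4 members per list with the smallest p, the 12 largest rises and falls with a mean over 1 CPM, non-overlapping groups and a protein match, and the 4 matched head-specific or foot-specific transcripts with the smallest p in each direction. Other names were chosen after their values were seen. Names marked as a match rest on the study's protein annotation. DESeq2 1.42.0 served as an alternative. The deposited FPKM columns hold no ALP library and were not used.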

Additional observations from a re-analysis of the deposited data

Results flagged for a closer look

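The ALP effect at 12 hpa differed from that at another time, by a test of the difference in the same edgeR fit (adjusted p under 0.01), for 2359 transcripts against 3 hpa, 464 against 24 hpa and 1663 against 48 hpa. Without ALP library 1 these counts were 1863, 333 and 1216. Of the 62 named transcripts called at 12 hpa, 22 were also called at 3 hpa, and 21 of these had the opposite sign there. The corresponding numbers were 6 of 32 at 24 hpa and 5 of 20 at 48 hpa. Over all 708 transcripts called at 12 hpa, 148 had the opposite and 28 the same sign at 3 hpa. At 24 hpa 15 had the opposite and 266 the same sign, and at 48 hpa 53 and 145. The values that follow are log2 effects at 12 hpa less those at the other time, for the transcripts called at both times with opposite signs.

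Against 3 hpa, the transcription factors differed by 3.44 for *dlx2*, 2.67 for *fos*, 1.01 for the AP-1 match, 0.95 for the SIX6 match, -1.05 for the HHEX match and -2.23 for *sp5*. In the signaling lists the differences were 1.91 for the kringelchen match, 1.46 for the Sprouty-2 match and 0.75 for the ACVR2A match. Among the metalloproteinases they were 2.63 for the BMP-1 match, 2.02 for the MMP-24 match (R039030c1g1_i01), 1.85 for a nas-13 match (R035386c0g1_i01), and 3.23, 1.01 and 2.4 for 3 nas-8 matches (R034130c1g1_i04, R036334c0g2_i02 and R036451c0g2_i03). The remaining differences were 2.7 for the ascorbate peroxidase match, 1.1 for the chymotrypsin-C match, 3.49 for the match to Active breakpoint cluster region-related protein, 4.5 for the match to Calpain small subunit 1, 1.85 for the match to Discoidin domain-containing receptor 2 and 2.32 for the match to Ras-like protein family member 12. All but those of *sp5* and the HHEX match went from lower at 3 hpa to higher at 12 hpa.

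Against 24 hpa, the differences were -1.18 for *gata3*, -1.69 for *nk2*, -1.65 for the vab-15 match, -2.21 for the DMBX1 match, -3.39 for the match to Notch-regulated ankyrin repeat-containing protein and -1.56 for the match to Zinc finger SWIM domain-containing protein 4. These 6 were lower with ALP at 12 hpa and higher at 24 hpa. Against 48 hpa, they were -1.13 for *gata3*, -1.49 for *nk2*, -2.43 for the FGFR-2 match, -3.33 for the match to Notch-regulated ankyrin repeat-containing protein and 0.96 for the match to Ephrin type-A receptor 4, which was higher with ALP at 12 hpa and lower at 48 hpa.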

How the results depend on the processing

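The count of called transcripts (708; 409 higher, 299 lower) was 1580 (858 and 722) at an adjusted p under 0.05 and 228 (154 and 74) with glmTreat at a fold of 1.2. It was 690 with DESeq2 size factors, 668 with no filter, 678 without the batch term, 941 on ComBat_seq counts (run without Foot and Head libraries), 861 with the DESeq2 Wald test, 862 (650 and 212) with only the 6 libraries and 519 (344 and 175) with only batch 1. Of the 862 calls with only the 6 libraries, 459 were among the 708 of the main fit. Leaving out 1 library gave 359 to 581 calls, 208 to 404 higher and 135 to 202 lower. The share of higher calls, 57.8%, was 75.4% with only the 6 libraries, 67.5% with glmTreat and 69.5% without ALP library 3. Head-specific transcripts that rose (125) were 33 without ALP library 1 and 47 with only the 6 libraries. With tissue lists at a log2 fold change over 1, 41 foot-specific transcripts rose and 25 fell and 17 head-specific transcripts fell, and 2 foot-specific transcripts fell without ALP library 1. At an adjusted p under 0.05, 4026, 1182 and 3025 transcripts differed between 12 hpa and 3, 24 and 48 hpa. Of the 62 named transcripts called, 23 were not called with glmTreat, 15 with only batch 1, and 23 without ALP library 1. With only the 6 libraries, 8 were not called and another 8 were not tested. The causes of these shifts were not tested, except that a fold threshold leaves the test less to call.

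Libraries numbered 1 and 2 in both groups did not deviate together (r = -0.013 and 0.023 over 14313 transcripts, which are not independent). Such deviations from group means cannot exclude that same-numbered pools were collected together, so whether they are paired is not known. The replicate block gave 667 calls over all libraries (380 and 287) and 457 (364 and 93, 79.6% higher) in the 6 libraries, where it leaves 1 residual degree of freedom. Of these 457 calls, 263 were among the 708 of the main fit, and of the 62 named transcripts 18 were not called and 8 were not tested. Both FPKM alternatives could not be run, because the FPKM columns used here hold no ALP library. Depth limits the weakest transcripts: *wnt3* and *sFRP* rest on 7 counts each over the DMSO group.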

Other observations

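Of the Wnt pathway genes that were not called at 12 hpa, *tcf* was called at the other times with opposite signs early and late, and *brachyury1* was called at 24 and 48 hpa alone. The effect of ALP on *tcf* was 0.88 at 3 hpa (adjusted p = 3.3e-12), 0.26 at 12 hpa, -0.51 at 24 hpa (adjusted p = 1.9e-06) and -0.61 at 48 hpa (adjusted p = 3.6e-09) on the log2 scale. *brachyury1* differed by 0.37 at 3 hpa (adjusted p = 0.17), -0.02 at 12 hpa, -0.98 at 24 hpa (adjusted p = 0.00024) and -0.7 at 48 hpa (adjusted p = 0.00061). The 12 hpa effect on *tcf* differed from that at each other time (adjusted p = 3.2e-05, 3.5e-06 and 4.8e-08), and that on *brachyury1* was not distinguishable from any of the others at the threshold (adjusted p = 0.3, 0.022 and 0.042). Of the 52 transcripts called at all 4 times, 2 had the same sign throughout, and both were lower with ALP.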
